A study of Arabidopsis thaliana with 12 samples.

Results

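Gene expression was compared between dark-grown Arabidopsis thaliana seedlings of the line 35S:miR396a and of the wild type Col-0. The members are the genes that the authors' deposited table for this pair of groups lists, 2207 of the 11417 genes listed in any of the 6 tables. For each of them the ratio of 35S:miR396a over Col-0 was taken from the mean FPKM columns (fragments per kilobase of transcript, scaled to the library's total). 35S:miR396a carries the microRNA miR396a under the 35S promoter, a strong viral promoter active in most plant cells, in the Columbia ecotype of the wild type. The labels name a single such line. Plants of both groups had grown for 4 days in darkness on MS medium with sucrose and got no light. Each group had 3 libraries that the labels call biological replicates, and the tissue is labelled hypocotyl, the seedling stem. A matching pair of groups, given 3 h of light after the same dark period, serves below only as a second setting in which the genotypes were compared. The files hold 1 mean per gene and group. No SD or n can therefore stand beside a level, and no difference could be set against the spread between replicates. "Listed" means that the authors called the gene at more than 2-fold, with a q-value under 0.001 that carries counting error only. In bulk tissue of this kind, fewer cells of a type and less RNA per cell cannot be told apart.

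miR396 is a conserved plant microRNA that pairs with messages of growth-regulating factors (GRFs) and guides their cleavage. GRFs are transcription factors that act with GIF coactivators to promote cell proliferation and organ growth, and in the mustard family miR396 also pairs with the message of bHLH74. A seedling in the dark is etiolated: its hypocotyl elongates, its plastids stay undeveloped, and it holds the chlorophyll precursor protochlorophyllide bound to its reductase until light arrives.

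The overexpressed microRNA and the sites that it can pair with are shown first, since the levels of the transcripts that carry them are the check of the line. The mature microRNAs were read from the RefSeq annotation of TAIR10.1, with the seed (bases 2 to 8) in capitals. miR396a lies on chr2:4142443-4142463 on the minus strand and miR396b on chr5:13611808-13611828 on the plus strand, and they share the seed.
miR396a: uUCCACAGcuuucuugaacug
miR396b: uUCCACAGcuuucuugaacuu
The best site in each target transcript is given 5′ to 3′ on the sense strand, with the bases opposite microRNA bases 2 to 7 in capitals.
GRF3 and GRF4: ccgttcaagaaagccTGTGGAa
GRF1 and GRF2: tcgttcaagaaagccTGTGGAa
GRF7 and GRF8: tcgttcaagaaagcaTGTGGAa
GRF9: acgttcaagaaagctTGTGGAa
bHLH74: tggaacaagaaagcTGTGGAg
The 7 GRF sites lie in coding exons and hold 1 base more than the microRNA can pair with, just before the capitals. The bHLH74 site pairs without a bulge and spans an exon junction of its coding sequence. In GRF7 (AT5G53660) the site is at chr5:21795145-21795166 on the plus strand in exon 2 of 3, and in GRF4 (AT3G52910) at chr3:19617293-19617314 on the minus strand in exon 3 of 4.

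All 8 target transcripts had a lower mean in 35S:miR396a than in Col-0, by between 1.57-fold for GRF1 and 8.15-fold for GRF8. GRF8 was at 0.173 FPKM in 35S:miR396a and 1.41 FPKM in Col-0, which correspond to 37 and 289 pooled reads recovered from the authors' deposited fold and p-value. GRF7 was 7.51-fold lower and bHLH74 4.84-fold lower. GRF4 was 3.17-fold lower, GRF9 2.45-fold and GRF2 2.40-fold, and GRF3, not listed, was 1.85-fold lower. Of the pairs that share a site, GRF7 and GRF8 were 7.51-fold and 8.15-fold lower, GRF3 and GRF4 1.85-fold and 3.17-fold, and GRF1 and GRF2 1.57-fold and 2.40-fold. The targets summed to 25.0 FPKM in 35S:miR396a, against 77.7 FPKM in Col-0. The drop of GRF7 and GRF8 was not seen after 3 h of light, where both were low in either genotype and neither was listed. There GRF7 stood at 0.23 FPKM in 35S:miR396a and 0.186 FPKM in Col-0, and GRF8 at 0.22 FPKM in 35S:miR396a against 0.206 FPKM in Col-0. GRF1, GRF2, GRF3, GRF4, GRF9 and bHLH74 each had a lower call in the light. Of the other GRFs and their partners, GRF6, whose transcript holds no like site, was 8.70-fold lower in the dark, and the coactivator GIF1 was 2.55-fold higher. GRF5, GIF2, GIF3 and the microRNA genes MIR396A and MIR396B had no value in any group, as no deposited comparison listed them. The level of the overexpressed microRNA gene itself could therefore not be compared. A missing value does not show that a transcript was absent.

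**Figure D1:**
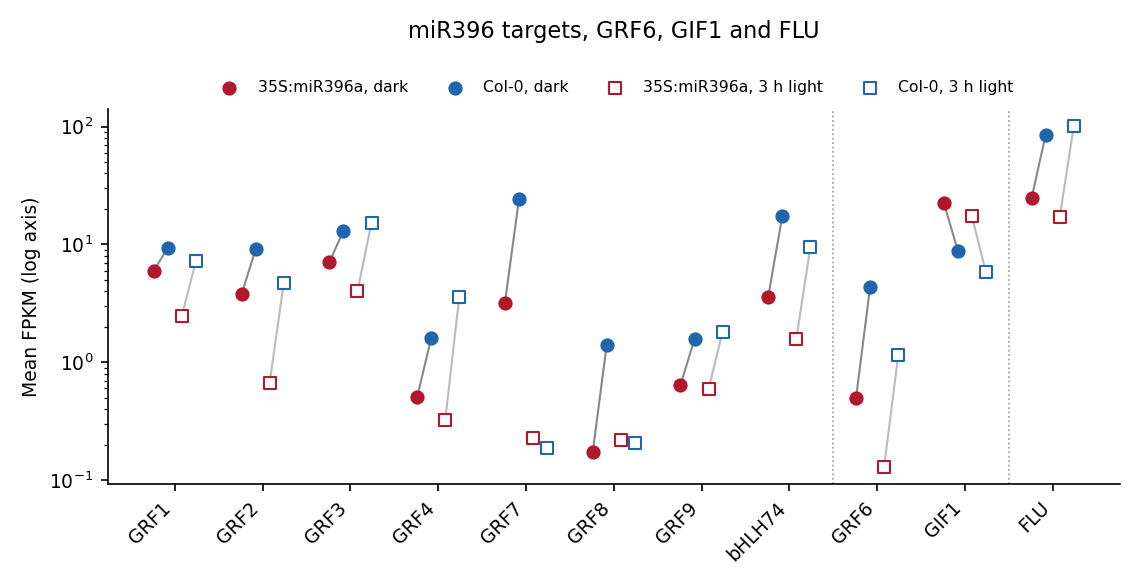
Mean FPKM (log axis) of the 8 miR396 targets, of GRF6 and GIF1, and of FLU; filled circles are the dark groups and open squares the groups given 3 h of light, with 35S:miR396a in red and Col-0 in blue. Each point is the authors' mean of 3 libraries. In the dark groups the red circle lies below the blue one for each of the 8 targets, for GRF6 and for FLU, and above it for GIF1.

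A scan of 27444 annotated messages, 1 transcript for each gene, for sites of this kind gave each site a total. Each mismatch or bulged base cost 1 and each G:U pair 0.5. A bulge was allowed at 1 place only, just before the capitals shown above, where the GRF sites hold theirs. The scoring thus takes its form from the GRF sites. With a total of at most 3, 15 genes held a site, 10 of them had a value in both dark groups, and 7 of these were listed lower and 0 higher. Beside that, 16.8% of the 7214 genes with a value in both dark groups were listed lower and 13.8% higher, 30.6% in all. These 7214 include only genes that the authors called in at least 1 of their tables, so the share is that of genes already called somewhere. A gene listed in the dark has both dark values by that listing, while one not listed there may lack them, here and below. Among all 27444 nuclear protein-coding genes of the annotation, 7.57% were listed in the dark. At a total of at most 3.5, which takes in bHLH74, 44 genes held a site, 19 had both values, and 9 were listed lower and 1 higher. PUB23, a ubiquitin ligase of stress response, holds a coding site with the same total as bHLH74. At a total of at most 4, 126 genes held a site, 43 had both values, and 13 were listed lower and 3 higher. Of the 7 genes listed lower at a total of at most 3, 5 are GRFs and the other 2 are FLU and AT2G34530, an uncharacterised gene at 0.556 FPKM in 35S:miR396a and 1.93 FPKM in Col-0.

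FLU (AT3G14110) encodes the plastid protein that holds back chlorophyll precursor synthesis in the dark. Its site lies in coding exon 3 of 3, at chr3:4676480-4676500 on the minus strand, and pairs without a bulge but with a mismatch opposite the seed.
FLU: gagttcaagatagcTTTGGAa
FLU was at 24.8 FPKM in 35S:miR396a and 85.2 FPKM in Col-0, 3.44-fold lower. It was also listed lower in the light, at 17.0 FPKM in 35S:miR396a and 100.8 FPKM in Col-0. A match of letters does not show that the microRNA acts on this message.

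Over the whole comparison, more genes were listed lower than higher, and the lower ones were the more abundant. 998 genes were listed higher in 35S:miR396a and 1209 lower. The median of the larger of the group means was 1.4 FPKM for the genes listed higher and 8.86 FPKM for those listed lower. With at least 5 FPKM in the larger group, 305 genes remained higher and 727 lower, and with at least 50 FPKM 53 higher and 205 lower. Under 1 FPKM in both groups lay 417 of the higher genes and 233 of the lower ones. The median fold was 2.77 among the genes listed higher and 3.13 among those listed lower, and 16-fold or more was reached by 61 and 96 of them. Over all 7214 genes with both values the median log2 ratio, with 1 FPKM added, was −0.02. Recovered from the deposited folds and p-values, the pooled depth in units of 1000000 fragments was about 118 for 35S:miR396a and 114 for Col-0, and 94 of the 1638 calls whose reads could be recovered rested on under 30 reads in the larger group.

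**Figure D2:**
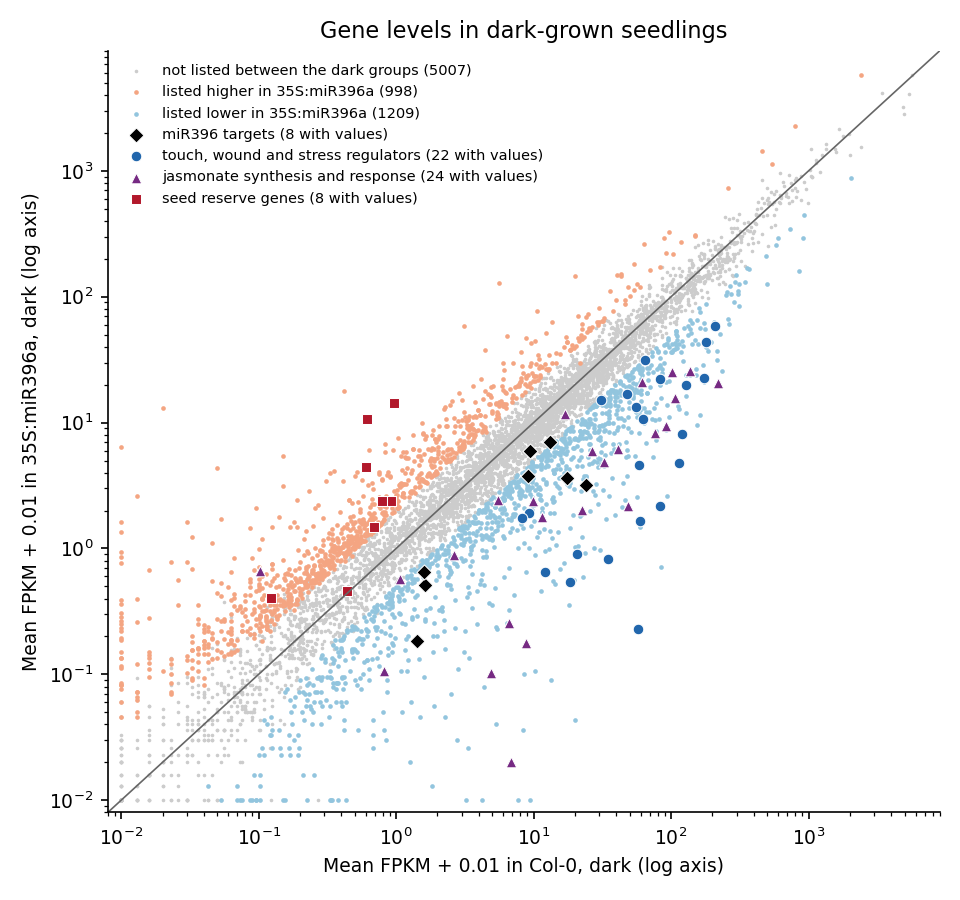
Mean FPKM plus 0.01 in dark 35S:miR396a (vertical, log axis) against dark Col-0 (horizontal, log axis) for the 7214 genes with both values; the line marks equal levels. The axes stop short of the highest levels, so LHCB1.3, at 17768 FPKM in 35S:miR396a and 11174 FPKM in Col-0, lies outside the plot. The 998 genes listed higher lie above it and the 1209 listed lower below it, and the touch, wound and stress regulators and nearly all jasmonate genes lie below.

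Of the 23 gene lists, the one with the lowest median ratio was that of rapid touch, wound and stress genes, mostly transcription factors that seedlings switch on within minutes of a mechanical or cold stimulus. Of its 24 members 22 had values in both dark groups, and all 22 were listed lower in 35S:miR396a, beside 16.8% of all genes with both values. Their FPKM summed to 282 in 35S:miR396a and 1631 in Col-0, and the median log2 ratio was −2.77. DDF1, an AP2 factor of salt and drought response, stood at 0.220 FPKM in 35S:miR396a and 57.8 FPKM in Col-0, 263-fold lower. The calmodulin-like calcium sensors CML39 and CML38 were at 0.813 and 2.18 FPKM in 35S:miR396a and at 34.9 and 83.6 FPKM in Col-0. The ethylene-response factor ERF105 was at 1.64 FPKM in 35S:miR396a and 59.0 FPKM in Col-0.

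The cold-response activators CBF1, CBF2 and CBF3 lie side by side on chromosome 4. CBF2 had 8.06 FPKM in 35S:miR396a and 120.4 FPKM in Col-0, CBF1 had 0.896 FPKM in 35S:miR396a against 20.7 FPKM in Col-0, and CBF3 had 0.636 FPKM in 35S:miR396a against 12.1 FPKM in Col-0. The 3 are similar copies, so the split of reads among them is uncertain, while the direction was the same for each. Of 3 cold-response genes downstream of CBFs, KIN1 stood at 3.26 FPKM in 35S:miR396a and 17.5 FPKM in Col-0, KIN2 at 24.6 FPKM in 35S:miR396a against 68.1 FPKM in Col-0, and LTI78 at 9.97 FPKM in 35S:miR396a against 37.5 FPKM in Col-0. KIN1, KIN2 and LTI78 were picked after their values were seen, from no list, and say nothing of other CBF targets. WRKY40, WRKY18 and WRKY33, regulators of defence, were lower by 24.0-fold, 12.7-fold and 5.83-fold. The zinc-finger repressors ZAT10 and ZAT12 were at 19.7 and 22.2 FPKM in 35S:miR396a and at 129.2 and 83.2 FPKM in Col-0. The touch-induced calmodulins TCH2 and TCH3 were at 58.7 and 43.8 FPKM in 35S:miR396a, against 207.4 and 178.7 FPKM in Col-0.

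The CML, PUB, ERF and WRKY families were drawn by symbol after the values were seen. They overlap the touch, wound and stress list: CML38, CML39 and ERF105 are in both, and CML24 and CML12 are TCH2 and TCH3 above. Their counts thus partly repeat those of that list. Of 10 calmodulin-like CML genes with both values 6 were listed lower (60.0%) and 0 higher, beside 16.8% and 13.8% over all genes. Of 8 plant U-box ubiquitin ligases with both values 6 were listed lower and 0 higher, and of 18 genes with an ERF symbol 10 were listed lower (55.6%) and 3 higher. The 37 WRKY genes with both values leaned little: 10 were listed lower (27.0%) and 7 higher (18.9%). The 7 WRKY genes listed higher reached at most 8.77 FPKM in 35S:miR396a, the level of WRKY47, whereas WRKY40 and WRKY33, listed lower, were at 4.76 and 10.6 FPKM in 35S:miR396a and at 114.5 and 62.0 FPKM in Col-0. Of the ubiquitin ligases, PUB23, whose message holds a site as said above, was 9.47-fold lower, at 6.90 FPKM in 35S:miR396a and 65.3 FPKM in Col-0. In the light it was not listed and stood the other way, at 10.8 FPKM in 35S:miR396a and 6.33 FPKM in Col-0. Whether the microRNA acts on the PUB23 message was not tested.

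Jasmonate genes formed the second group. Jasmonate is a lipid hormone of wounding, made in steps by LOX, AOS, AOC and OPR3, sensed with the JAZ repressors and broken down by CYP94 enzymes. Of 30 members 24 had both values, 21 were listed lower (87.5%) and 1, LOX2, higher (4.17%), beside 16.8% and 13.8% over all genes. In synthesis, LOX3 was 52.8-fold lower, LOX4 11.2-fold, AOC3 9.25-fold, AOS 4.06-fold and OPR3 2.88-fold. AOC3 was at 8.26 FPKM in 35S:miR396a and 76.4 FPKM in Col-0. LOX2, the 13-lipoxygenase of leaves, was low in both, at 0.656 FPKM in 35S:miR396a and 0.093 FPKM in Col-0.

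Of the 12 JAZ genes, whose own transcription jasmonate raises, 9 had both values and 8 were listed lower (88.9%, beside 16.8% over all genes). JAZ genes are also in the jasmonate list, so this count partly repeats the one above. JAZ1 was at 20.7 FPKM in 35S:miR396a and 218.9 FPKM in Col-0, and JAZ7 at 2.16 FPKM in 35S:miR396a and 48.2 FPKM in Col-0. JAZ8 had 0.010 FPKM in 35S:miR396a, 1 pooled read, against 6.89 FPKM and 628 reads in Col-0. JAZ5 was 26.8-fold lower. The regulator MYC2 was at 25.5 FPKM in 35S:miR396a and 137.4 FPKM in Col-0, and the inactivating oxidase CYP94B3 at 9.41 FPKM in 35S:miR396a against 91.5 FPKM in Col-0. Among jasmonate-responsive genes TAT3, a tyrosine aminotransferase, was 52.5-fold lower, the storage proteins VSP1 and VSP2 were 2.3-fold and 3.00-fold lower, and the defensin PDF1.2 was 8.47-fold lower at under 1 FPKM in both groups.

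Of 18 heat-shock genes, all with both values, 10 were listed lower (55.6%) and 0 higher, beside 16.8% and 13.8% over all genes, and 16 had the lower mean in 35S:miR396a. Of the 8 small heat-shock proteins in the list, chaperones that hold unfolded proteins, 7 were not listed, and HSP17.6II and HSP17.6C had the higher mean in 35S:miR396a, HSP17.6II at 0.926 FPKM in 35S:miR396a and 0.593 FPKM in Col-0. HSFA2, the heat-induced activator, was at 1.03 FPKM in 35S:miR396a and 21.0 FPKM in Col-0. DREB2A, an AP2 activator of drought and heat genes, was at 7.25 FPKM in 35S:miR396a and 77.2 FPKM in Col-0. MBF1C, a transcriptional coactivator of thermotolerance, was 8.23-fold lower and the chaperone HSP70-4 8.18-fold lower, at 22.0 FPKM in 35S:miR396a against 179.9 FPKM in Col-0. In the list of oxidative-stress and antioxidant genes 7 of the 18 with both values were listed lower (38.9%) and 1 higher (5.56%), beside the same shares over all genes. BAP1, an inhibitor of cell death, was 10.2-fold lower and the kinase OXI1 3.35-fold lower. VTC2, the first committed enzyme of ascorbate synthesis, stood at 65.2 FPKM in 35S:miR396a and 155.2 FPKM in Col-0. SIB1 and AATP1-like, listed lower as well, were at most 1.19 FPKM in either group.

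**Figure D3:**
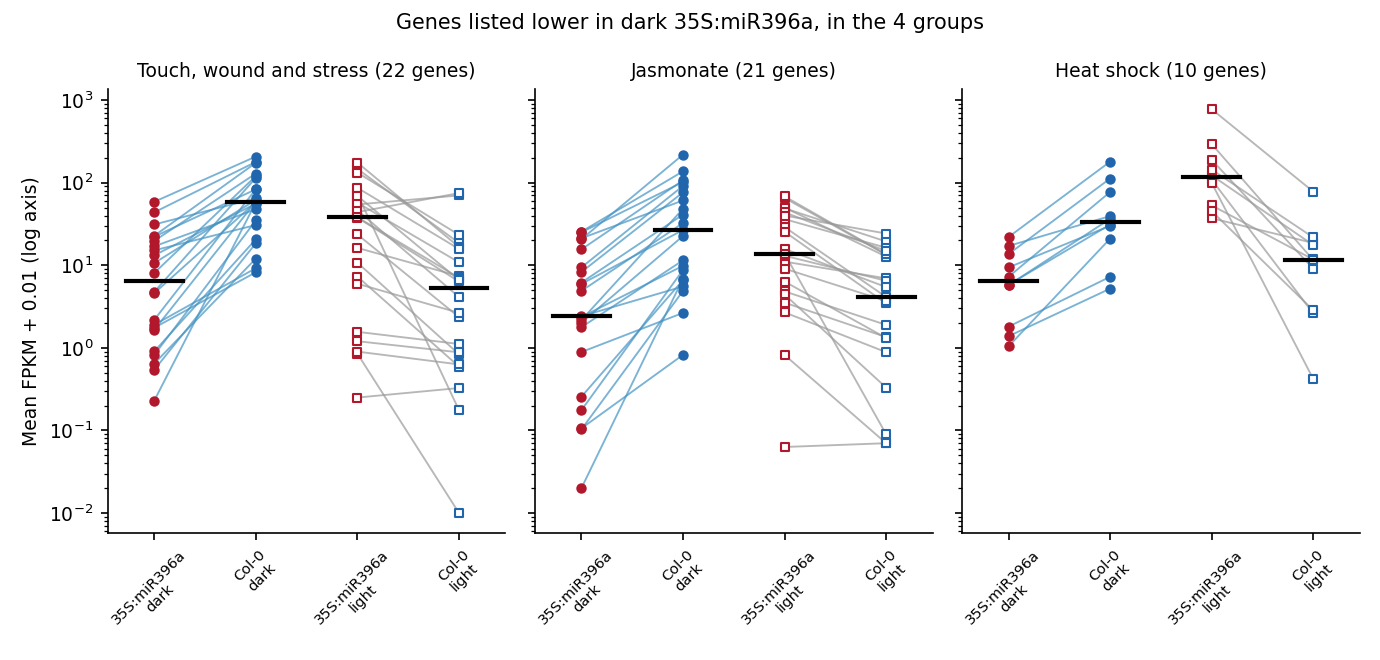
Mean FPKM plus 0.01 (log axis) in the 4 groups for the genes listed lower in dark 35S:miR396a of 3 lists: 22 touch, wound and stress genes, 21 jasmonate genes and 10 heat-shock genes. Lines join the genotypes within a light setting and black bars are medians, for the touch list 6.41 FPKM in dark 35S:miR396a, 58.6 in dark Col-0, 37.9 in illuminated 35S:miR396a and 5.23 in illuminated Col-0.

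Most of these stress genes stood the other way round between the genotypes in the light. Of the 22 touch, wound and stress genes listed lower in the dark, 16 were listed higher in 35S:miR396a in the light and 0 lower. Of the 21 jasmonate genes it was 17 and 0, and of the 10 heat-shock genes 9 and 0. The dark and light genotype tables share no libraries, and 46.0% of the 8798 genes with both light values were listed higher in 35S:miR396a in the light, 33.6% lower and 79.6% either way. Col-0 in the dark held the highest of the 4 means for 15 of those 22 touch, wound and stress genes and for 16 of the 24 jasmonate genes, but for 1 of the 18 heat-shock genes. Over all genes listed lower in the dark with 4 values, it was highest for 627 of 1093 (57.4%), beside 22.7% of the 6223 genes with 4 values. For each gene listed lower in the dark, dark Col-0 lies above dark 35S:miR396a by selection, so that share is a description.

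Across all listed genes, the 1093 listed lower in the dark that had both light values were listed higher in the light in 530 cases (48.5%) and lower in 217 (19.9%). Of the 815 listed higher in the dark with both light values, 462 were also higher in the light (56.7%) and 106 lower (13%). Both shares listed higher stand beside 46.0% over all genes with both light values, and those listed lower beside 33.6%. Genes listed lower in 35S:miR396a in both settings, with at least 5 FPKM in the larger dark group, were led by AT4G29200, a gene annotated as related to beta-galactosidase. It had 0.033 FPKM in dark 35S:miR396a and 20.1 FPKM in dark Col-0, and in the light 0.026 FPKM in 35S:miR396a against 17.1 FPKM in Col-0. FdC1, a ferredoxin-like protein, was at 1.82 FPKM in dark 35S:miR396a and 38.8 FPKM in dark Col-0, and in the light it was listed at 0 in 35S:miR396a and at 129.8 FPKM in Col-0. MRD1 was at 1.01 FPKM in dark 35S:miR396a and 19.9 FPKM in dark Col-0, and in the light at 0.783 FPKM in 35S:miR396a against 19.5 FPKM in Col-0. The chloroplast beta-amylase CT-BMY, which breaks down starch, was 13.7-fold lower in the dark, and the cellulase CEL2 7.71-fold lower.

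The upstream sequences of the listed genes were read from TAIR10.1, 300 bases before each gene's start, since many of the lower genes are ones that respond to stress within minutes. CGCGTT, the core of the rapid stress response element that CAMTA factors bind, was searched on both strands and found in 7.80% of 1193 genes listed lower, 2.15% of 885 listed higher and 3.08% of all 27443 protein-coding genes. CACGTG, the G-box bound by bHLH and bZIP factors such as MYC2, PIFs and HY5, was in 13.8% of the lower genes, 4.63% of the higher ones and 7.09% of all. GCCGAC, the element that CBFs bind, was in 5.45% of the lower genes, 2.26% of the higher ones and 3.01% of all. TTGACC, the W-box of WRKY factors, was in 17.1% of the lower genes, 16.4% of the higher ones and 14% of all. GCCGCC, the GCC box of ERFs, was in 2.18% of the lower genes, 1.92% of the higher ones and 2.26% of all. Each motif was counted on its own, so overlapping matches of different motifs count for each. These shares carry no test. Of the 24 touch, wound and stress genes 2 held CGCGTT in the window, CBF2 and TCH2, and 90 bases of each are shown with the matches in capitals, CBF2 from 128 to 39 bases before its start (chr4:13016274-13016363, minus strand) and TCH2 from 117 to 28 bases before (chr5:14999647-14999736, minus strand).
CBF2: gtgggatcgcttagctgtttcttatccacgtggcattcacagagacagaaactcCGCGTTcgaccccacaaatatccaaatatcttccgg
TCH2: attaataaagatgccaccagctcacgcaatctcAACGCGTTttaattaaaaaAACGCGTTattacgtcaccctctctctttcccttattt
The CBF2 stretch holds 1 match and the TCH2 stretch 4, counted on both strands, as each AACGCGTT reads the same on either strand and holds the motif in both directions. A match of letters says nothing of binding in these seedlings.

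Of the 19 light-signalling regulators with both values 6 were listed lower (31.6%) and 2 higher (10.5%), beside 16.8% and 13.8% over all genes. HY5, the bZIP factor that promotes development in the light, was at 16.9 FPKM in 35S:miR396a and 60.0 FPKM in Col-0, and its relative HYH at 2.78 FPKM in 35S:miR396a against 7.87 FPKM in Col-0. SPA1, a partner of the COP1 ubiquitin ligase, was 3.31-fold lower, and RUP1 and RUP2, repressors of ultraviolet-B signalling, were 2.64-fold and 2.28-fold lower. GLK2, an activator of chloroplast genes, was at 56.1 FPKM in 35S:miR396a and 161.0 FPKM in Col-0. PIL1 and ATHB2, shade genes that PIF factors switch on, were listed higher, PIL1 at 14.8 FPKM in 35S:miR396a against 2.56 FPKM in Col-0 and ATHB2 at 18.6 FPKM in 35S:miR396a against 6.70 FPKM in Col-0.

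Of 30 genes with a B-box (BBX) symbol, zinc-finger proteins that act around HY5 and COP1, 20 had both values, 8 were listed lower (40%, beside 16.8% over all genes) and 0 higher. This family was chosen after its values were seen. BBX24 was at 62.3 FPKM in 35S:miR396a and 174.3 FPKM in Col-0. BBX32 was listed at 0 in 35S:miR396a and at 7.74 FPKM in Col-0, and BBX30 was at 0.230 FPKM in 35S:miR396a against 5.31 FPKM in Col-0. Clock genes leaned the same way: all 7 with both values had the lower mean in 35S:miR396a, and 5 of these 7 were listed lower (71.4%), namely PRR9 (9.29-fold), PRR5 (3.76-fold), RVE1 (2.77-fold), ELF4 (2.51-fold) and GI (2.03-fold).

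In the flavonoid list 4 of 11 genes were listed lower (36.4%, beside 16.8% over all genes) and 0 higher. By the FPKM ratio, centred on its log2 median over all genes, 2 of the 4 were past 2-fold. The enzyme F3H was at 1.71 FPKM in 35S:miR396a and 11.3 FPKM in Col-0, and PAP1, the MYB activator of anthocyanin synthesis, at 0.140 FPKM in 35S:miR396a against 3.08 FPKM in Col-0. MYB111 and MYB12, activators of flavonol synthesis, were 2.00-fold and 1.97-fold lower by FPKM and under 3 FPKM in both groups.

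Of the 18 tetrapyrrole genes with both values 4 were listed lower (22.2%, beside 16.8% over all genes) and 0 higher: FLU as above, the dark reductase PORA, its relative PORC and the ferrochelatase FC1. PORA, the protochlorophyllide reductase that marks the etiolated state, had 160.6 FPKM in 35S:miR396a and 848.9 FPKM in Col-0, 5.29-fold lower and the second largest drop in level of any listed gene. FC1 was at 28.8 FPKM in 35S:miR396a and 83.2 FPKM in Col-0, and PORC at 8.54 FPKM in 35S:miR396a against 19.4 FPKM in Col-0. None of the 27 nuclear photosystem and Rubisco genes was listed in either direction, all 27 had both values, 15 were higher and 12 lower in 35S:miR396a, and their FPKM summed to 14354 in 35S:miR396a and 15277 in Col-0. In the antenna list of 22 the higher calls numbered 3 (13.6%) and the lower ones 2 (9.09%), no more than the 13.8% and 16.8% over all genes. LHCB1.1, LHCB1.4 and LHCB2.2 were higher by 1.92-fold, 2.29-fold and 2.09-fold by FPKM. LHCB1.1 was thus under 2-fold by FPKM before centring as well as after it, while LHCB1.4 and LHCB2.2 stayed past 2-fold. LHCB1.1, LHCB1.4 and LHCB2.2 have close copies, so the share of reads each was given is uncertain. The other 2 listed members, the early light-induced proteins ELIP1 and ELIP2, which protect against excess light, were listed lower, at 2.57 and 8.46 FPKM in 35S:miR396a and at 56.8 and 35.3 FPKM in Col-0. LIL3:2, which anchors chlorophyll synthesis enzymes in the membrane, was at 348.0 FPKM in 35S:miR396a and 729.2 FPKM in Col-0.

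Transcripts of the plastid genome stood apart from the nuclear photosynthesis genes. All 62 plastid identifiers with a value in both dark groups were listed higher in 35S:miR396a, beside 13.8% over all genes, with a median fold of 4.34 and a range of 1.36 to 12.3 by FPKM. In all, 66 plastid identifiers were listed in any comparison. Being listed in the dark itself gives an identifier both dark values, so one not called there could drop out of the 62. The 62 summed to 707.6 FPKM in 35S:miR396a and 213.8 FPKM in Col-0. ATCG00120 and ATCG00270 had the highest levels, at 47.1 and 44.4 FPKM in 35S:miR396a and at 8.85 and 10.3 FPKM in Col-0. In the light 46 of the 62 had both values, and 24 of these were listed higher (52.2%) and 0 lower, beside 46.0% and 33.6% over all genes. Of the 46 mitochondrial identifiers with both dark values 18 were listed higher in the dark (39.1%) and 1 lower (2.17%), beside 13.8% and 16.8% over all genes. As background, messenger RNA libraries select polyadenylated RNA, of which plastids and mitochondria hold little. The files and the annotation used here pair no gene names with these identifiers.

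**Figure D4:**
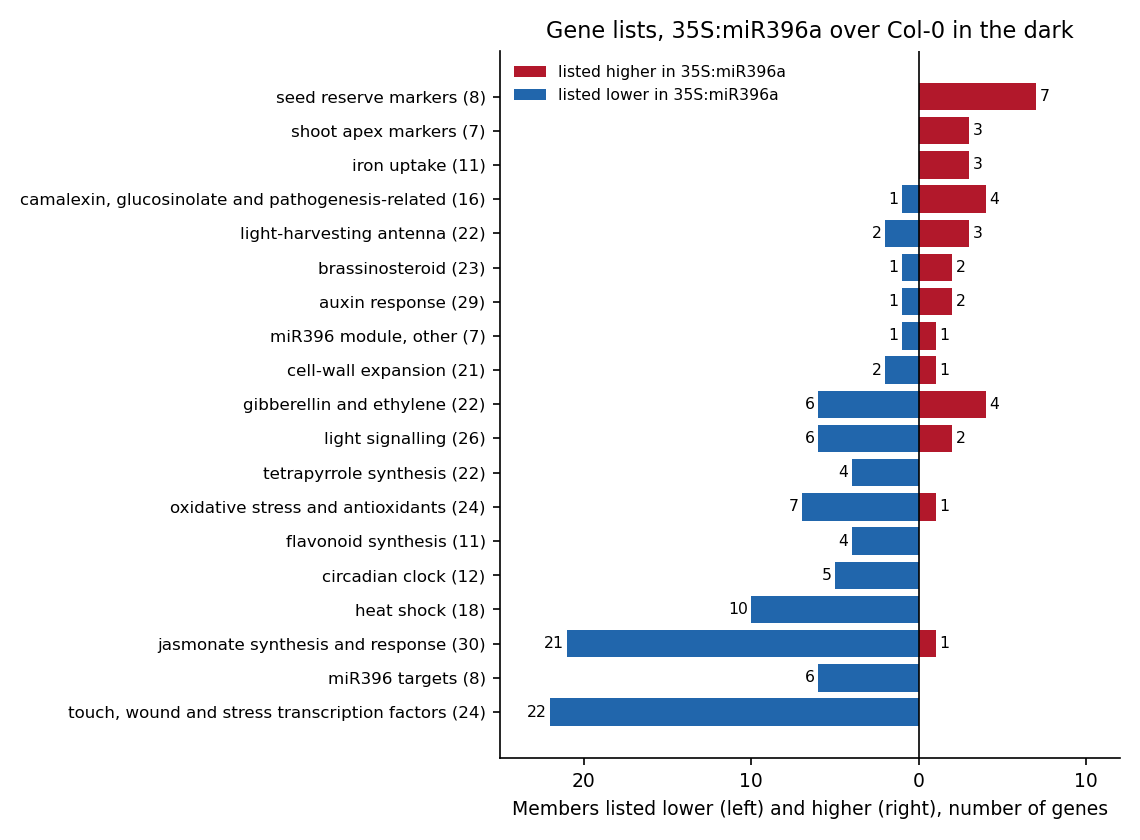
Number of members listed higher (red, right) and lower (blue, left) in dark 35S:miR396a for each gene list with at least 1 listed member; the number in brackets is the size of the list. The touch, wound and stress list has 22 lower and 0 higher, the jasmonate list 21 lower and 1 higher, and the seed reserve list 7 higher and 0 lower.

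Of the 24 auxin response genes with both values 1 was listed lower (4.17%) and 2 higher (8.33%), both below the shares over all genes. IAA29, an early auxin gene that PIF factors also switch on, was at 19.5 FPKM in 35S:miR396a and 3.62 FPKM in Col-0, and the conjugating enzyme GH3.2 at 11.4 FPKM in 35S:miR396a against 4.44 FPKM in Col-0. IAA5 was 1.97-fold lower by FPKM, so it was under 2-fold before centring as well as after it. Of the 57 SAUR genes with both values, short auxin-induced messages that promote cell expansion, 7 were listed higher (12.3%) and 9 lower (15.8%), close to the 13.8% and 16.8% over all genes. The largest of these drops was that of SAUR79, at 1.22 FPKM in 35S:miR396a and 22.4 FPKM in Col-0. Of the 10 brassinosteroid genes with both values 2 were listed higher (20%) and 1 lower (10%), beside 13.8% and 16.8% over all genes. The growth-promoting factors BEE3 and PRE6 were listed higher, by 3.55-fold and 2.13-fold, and PRE5 was listed lower, by 3.67-fold. PRE6 was at 52.5 FPKM in 35S:miR396a and 24.6 FPKM in Col-0. In the cell-wall expansion list 17 genes had both values, 1 listed higher (5.88%) and 2 lower (11.8%), both below the shares over all genes. The expansin EXPA1 was listed higher, at 119.0 FPKM in 35S:miR396a and 48.3 FPKM in Col-0. XTH22 and XTH23, xyloglucan-remodelling enzymes, were listed lower. XTH22, also known as the touch gene TCH4, was at 22.8 FPKM in 35S:miR396a and 174.3 FPKM in Col-0.

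Of the 20 gibberellin and ethylene genes with both values 6 were listed lower (30%) and 4 higher (20%), beside 16.8% and 13.8% over all genes, and the list's median log2 ratio was 0.047. GA2OX1 and GA2OX6, which inactivate gibberellin, were 26.9-fold and 5.33-fold lower, GA2OX6 at 12.2 FPKM in 35S:miR396a and 65.2 FPKM in Col-0. GA20OX2, which makes gibberellin, was 2.24-fold higher. GASA4, a small cell-wall peptide gene that gibberellin raises, had the largest gain in level of any listed gene, with 5807 FPKM in 35S:miR396a and 2390 FPKM in Col-0. Of the 6 GASA genes with both values, a family chosen after its values were seen, 3 were listed higher (50%) and 0 lower, and GASA6 was at 326.2 FPKM in 35S:miR396a and 97.0 FPKM in Col-0. The ethylene synthases ACS6 and ACS11 were listed lower, ACS6 at 11.9 FPKM in 35S:miR396a and 129.0 FPKM in Col-0. ACS4 and ACS8 were listed higher at under 4 FPKM in both groups. EBF2, an ethylene-induced F-box protein that restrains the pathway, was at 219.5 FPKM in 35S:miR396a and 103.0 FPKM in Col-0.

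Cytokinin genes were chosen after their values were seen. These hormone-response genes comprise type-A response regulators (ARRs), which cytokinin switches on and which damp its signal, and cytokinin oxidases (CKXs), which break it down. Of 17 members 11 had both values, all 11 were above Col-0 in 35S:miR396a, and 8 were listed higher (72.7%, beside 13.8% over all genes) and 0 lower. CKX5 had 37.5 FPKM in 35S:miR396a and 4.39 FPKM in Col-0. ARR4 was at 94.7 FPKM in 35S:miR396a and 39.8 FPKM in Col-0, ARR7 at 17.8 FPKM in 35S:miR396a against 4.39 FPKM in Col-0, and ARR16 at 6.71 FPKM in 35S:miR396a against 0.823 FPKM in Col-0. In the light ARR7, ARR15 and ARR16 were listed the other way, with ARR16 at 1.296 FPKM in 35S:miR396a and 6.876 FPKM in Col-0.

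Cell-wall structural proteins were among the most abundant genes listed higher. Of 7 genes with an extensin (EXT) symbol, hydroxyproline-rich proteins that lock the wall, 5 had both values and all 5 were listed higher, beside 13.8% over all genes. The family was drawn after its values were seen. EXT4 was at 1443 FPKM in 35S:miR396a and 460.7 FPKM in Col-0, and EXT3 at 736.0 FPKM in 35S:miR396a against 259.6 FPKM in Col-0. EXT3, EXT4, EXT6 and EXT10 were listed higher in the light too. EPR1, another proline-rich extensin, was 9.62-fold higher. Extensin messages are repetitive, so the reads each was given are uncertain.

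Among metal and nitrogen genes, the copper and nitrate lists were chosen after their values were seen. The copper-zinc superoxide dismutase CSD2 was at 152.5 FPKM in 35S:miR396a and 43.5 FPKM in Col-0, and its copper chaperone CCS at 69.0 FPKM in 35S:miR396a against 23.9 FPKM in Col-0. The iron superoxide dismutase FSD1, which replaces them when copper is scarce, went the other way, at 442.0 FPKM in 35S:miR396a and 919.7 FPKM in Col-0. FRO4, also in the copper list, was listed higher, at 2.48 FPKM in 35S:miR396a against 0.896 FPKM in Col-0. In all, 4 copper genes had both values, 3 listed higher (75%) and 1 lower (25%), beside 13.8% and 16.8% over all genes. Of the 4 iron-uptake genes with both values 3 were listed higher and 0 lower, beside 13.8% and 16.8% over all genes: the regulator bHLH39 (2.49-fold), the transporter IRT1 (2.02-fold) and the ferric reductase FRO2 (2.31-fold). Of the 6 nitrate-assimilation genes with both values 4 were listed higher (66.7%) and 0 lower, among them the nitrate reductase NIA2 at 305.1 FPKM in 35S:miR396a and 149.7 FPKM in Col-0. NIA1, its copy, was at 131.2 FPKM in 35S:miR396a and 132.3 FPKM in Col-0.

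**Figure D5:**
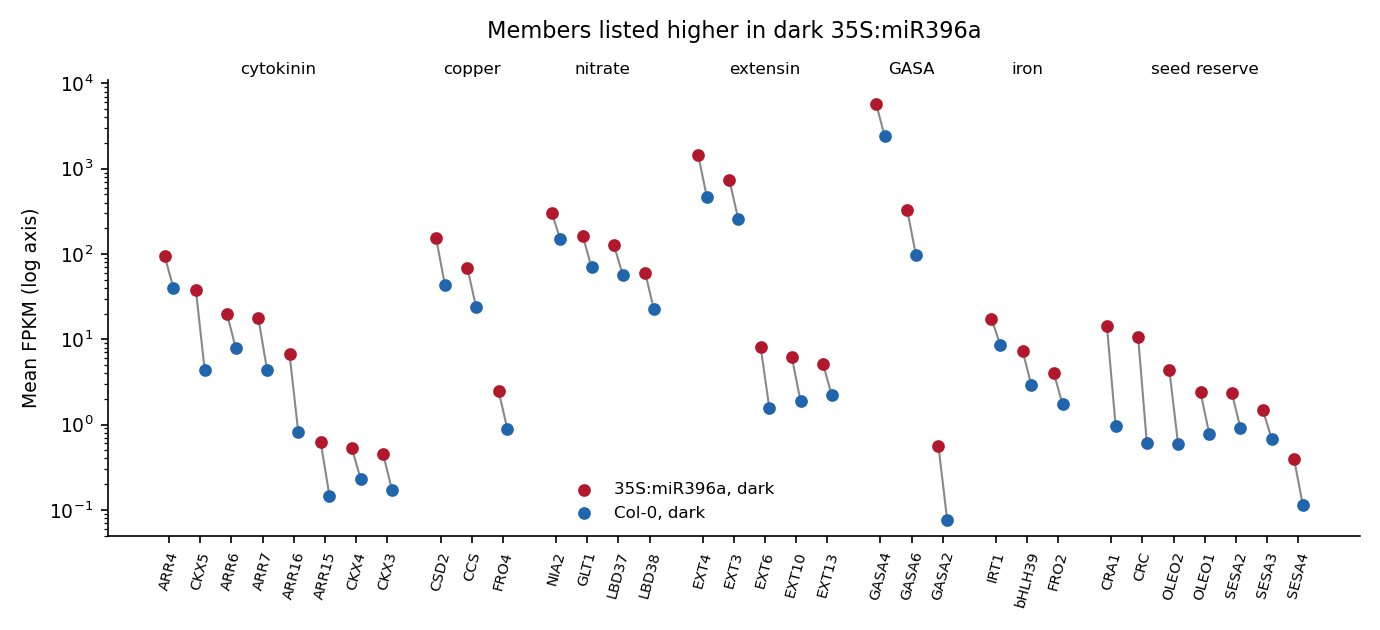
Mean FPKM (log axis) in dark 35S:miR396a (red, left of each pair) and dark Col-0 (blue, right) of the members listed higher in 7 groups: cytokinin, copper, nitrate, extensin, GASA, iron uptake and seed reserve genes. Levels run over nearly the whole axis, with GASA4 at 5807 FPKM in 35S:miR396a and 2390 FPKM in Col-0. SESA4 is at 0.393 FPKM in 35S:miR396a and 0.113 FPKM in Col-0, and GASA2 at 0.56 FPKM in 35S:miR396a and 0.076 FPKM in Col-0.

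In the list of 16 camalexin, glucosinolate and pathogenesis genes 6 had both values, 4 were listed higher (66.7%) and 1 lower (16.7%), beside 13.8% and 16.8% over all genes. With at least 5 FPKM in the larger group 1 of each remained. CYP71A12, a cytochrome P450 of indole defence compounds, was at 17.9 FPKM in 35S:miR396a and 0.410 FPKM in Col-0, 43.7-fold higher. PAD3, the last enzyme of camalexin synthesis, was 3.28-fold higher. CYP71A13 was at 0.663 FPKM in 35S:miR396a and 0.006 FPKM in Col-0, and CYP83A1 at 0.096 FPKM in 35S:miR396a against 0.010 FPKM in Col-0. CYP71A13 and CYP71A12 are close copies, so the split of their reads is uncertain. MYB51, an activator of indole glucosinolate genes, was 2.94-fold lower. The berberine-bridge-type oxidase AT1G26380 was 38.5-fold higher, at 5.39 FPKM in 35S:miR396a and 0.140 FPKM in Col-0. CYP71A12, PAD3, CYP71A13 and AT1G26380 were listed higher in the light as well.

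The glutathione transferases were drawn after their values were seen. Of the 8 phi-class GSTF genes with both values 5 were listed higher (62.5%) and 0 lower, beside 13.8% and 16.8% over all genes, with GSTF2 at 308.7 FPKM in 35S:miR396a and 150.1 FPKM in Col-0 and GSTF7 at 146.3 FPKM in 35S:miR396a against 20.1 FPKM in Col-0. GSTF6 and GSTF7 are near-identical neighbours. Of the 19 tau-class GSTU genes with both values 6 were listed lower (31.6%) and 1 higher (5.26%). Of the same 19, 10 had the lower and 9 the higher mean in 35S:miR396a, and they summed to 944.1 FPKM in 35S:miR396a and 974.9 FPKM in Col-0. GSTU5 was at 20.1 FPKM in 35S:miR396a and 133.9 FPKM in Col-0.

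Messages of seed storage genes were higher in 35S:miR396a. Of 8 markers 7 were listed higher (87.5%, beside 13.8% over all genes) and 0 lower, the median log2 ratio was 0.88, and the list summed to 36.5 FPKM in 35S:miR396a and 5.05 FPKM in Col-0. The cruciferins CRC and CRA1 were at 10.7 and 14.3 FPKM in 35S:miR396a and at 0.603 and 0.953 FPKM in Col-0, and the oleosin OLEO2 at 4.42 FPKM in 35S:miR396a against 0.593 FPKM in Col-0. The albumin SESA4 was 3.48-fold higher. In the light all 8 markers were listed higher in 35S:miR396a, beside 46.0% over all genes. There they summed to 124.3 FPKM in 35S:miR396a and 17.35 FPKM in Col-0, above the dark sums in both genotypes. Levels of root markers could not be set side by side, since 0 of 9 had a value in both dark groups, and the same held for the 3 vascular markers. Of 7 shoot-apex markers CUC1, CUC2 and CLV3 were listed higher and each was under 1 FPKM in both groups, although the tissue is labelled hypocotyl. The part of the seed reserve and shoot-apex messages in the other differences was not tested. Of the dark groups, STM, a gene of the shoot meristem, had a value in 35S:miR396a only, 9.996 FPKM, and RHD6, a root-hair regulator, in Col-0 only, 1.33 FPKM. Neither was listed between the dark groups. The missing value means only that no deposited comparison with that group listed the gene, not that it was absent there. Of the etiolation markers besides PORA, the photoreceptor PHYA was at 351.4 FPKM in 35S:miR396a and 287.4 FPKM in Col-0, and HLS1, which keeps the apical hook closed, was at 11.8 FPKM in 35S:miR396a and 7.73 FPKM in Col-0, neither of them listed. Of 9 cell-cycle genes 0 were listed in either direction and 2 had both values.

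Beside JAZ8 and DDF1, genes outside the lists were among the widest ratios. PMT6, a sugar alcohol transporter, was at 13.2 FPKM in 35S:miR396a and 0.010 FPKM in Col-0, and it was listed at 0 in both genotypes in the light. LpxC3 was at 6.44 FPKM in 35S:miR396a and listed at 0 in Col-0. AT3G50800 was listed at 0 in 35S:miR396a and at 9.45 FPKM in Col-0. AT3G16670, which encodes a protein of the Ole e 1 and extensin kind, was at 127.4 FPKM in 35S:miR396a and 5.61 FPKM in Col-0, and it was listed lower in the light. The methyltransferase gene PXMT1 was 18.9-fold higher. The methyltransferase FAMT and its neighbour AT3G44870 were 107-fold and 320.5-fold lower, and both were listed higher in 35S:miR396a in the light. RRTF1, an ERF of redox stress, was 120-fold lower, with 0.703 FPKM in 35S:miR396a and 84.6 FPKM in Col-0.

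In level, the largest drop was that of DYL1, a dormancy-associated gene, at 874.5 FPKM in 35S:miR396a and 2033 FPKM in Col-0. AT5G44440, a berberine-bridge-type oxidase, was at 291.8 FPKM in 35S:miR396a and 918.3 FPKM in Col-0, and SRC2, a cold-induced gene, at 127.1 FPKM in 35S:miR396a against 494.5 FPKM in Col-0. Among the largest gains, the senescence-associated SAG21 was at 2287 FPKM in 35S:miR396a and 797.3 FPKM in Col-0.

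Some neighbouring genes shared a direction. Among nuclear protein-coding genes in chromosome order, 21 runs of at least 3 adjacent genes were listed the same way, 9 higher and 12 lower, holding 71 of the 2078 listed genes of that kind (3.42%). The longest, of 6 genes, ran on chromosome 4 from AT4G15660 to AT4G15710 and held 5 thioredoxin-superfamily genes and a cystatin-like gene. AT4G15690 was at 15.9 FPKM in 35S:miR396a and 4.93 FPKM in Col-0, and all 6 were listed lower in 35S:miR396a in the light. Another run, on the same chromosome, held the methionine sulfoxide reductases MSRB7, MSRB8 and MSRB9, which repair oxidised protein. MSRB7 was at 26.5 FPKM in 35S:miR396a and 150.5 FPKM in Col-0, and MSRB9 at 295.2 FPKM in 35S:miR396a against 603.4 FPKM in Col-0. The reads of copies in such a run may have been split between them, and some runs hold overlapping genes, whose reads cannot be told apart where strand is not given.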

How the data were processed

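Per the labels' protocols, messenger RNA libraries were sequenced on the BGISEQ-500 platform. HISAT and Bowtie2 aligned the reads to TAIR10, per the submitters' processing notes, with versions not given in the sources used here; strand and layout are not given either. The authors deposited FPKM only as averages over the libraries of a group. Per the file headers, each table also holds a log2 fold change, a p-value and a q-value of DEGseq, whereas the design text names NOISeq, so the sources differ on the tool. Every listed gene of the dark table passed 2-fold by the deposited log2 value, with a q-value of at most 0.000989.

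Values of a group were joined over the 6 tables, and 0 values conflicted. Since only group averages of called genes are held, the calls that the authors deposited were counted and nothing was fitted across genes. The deposited p-values were checked against DEGseq's model on pooled reads: with 1 fitted scale, reads came out whole within 0.05 for 81.6% of 495 genes with few reads. They hold counting error only. For 43 of the 2207 listed genes the ratio of the FPKM averages is under 2, and for 0 it has the opposite sign to the deposited fold. Of the 2207 identifiers 2078 matched the TAIR10.1 annotation, 62 were plastid, 19 mitochondrial and 48 transcripts named by the sequencing centre. Columns left unused numbered 0.

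The 23 gene lists, and 3 lists and 11 symbol families added later, were chosen with earlier results of these data known. A list's median is that of log2((FPKM + 1) ratios). Named were the miR396 targets and partners, the 12 widest ratios each way (at least 5 FPKM in the larger group, above 0 in both), genes at 0 in 1 group and at least 5 FPKM in the other, the 8 largest differences each way, and in each list all listed members up to 6, otherwise the 4 widest ratios in the main direction and up to 3 in the other. Other genes were named after their values were seen. Sites and windows were read by gene identifier from the RefSeq genome of TAIR10.1. Python 3.11.15, pandas 2.3.3 and numpy 2.4.6 were used. The recovery of reads was tested on simulated data.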

Additional observations from a re-analysis of the deposited data

How the results depend on the processing

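Only group means were available, so leaving out a library was not run. No paired analysis was possible because the files hold 1 mean per group and no single library. Of 167 alternative values over 56 results, 114 stayed within 1.5 times of the reported one, 52 moved further and 1 changed sign.

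At 4-fold by the FPKM ratio 269 genes were listed higher and 444 lower, and at 4-fold by the deposited fold, a choice made after seeing the data, 268 and 445. With at least 1 FPKM in the larger group 581 were listed higher, and with at least 5 FPKM 305 higher and 727 lower. With that floor in the dark, 150 genes were listed higher in dark and light, 42 higher in the dark and lower in the light, 348 lower in the dark and higher in the light, and 107 lower in both. Asking for 2-fold by the FPKM ratio, centred on its median log2 of −0.057 with nothing added, left 991 higher and 1098 lower. Of the 2207 listed genes 43 were under 2-fold by FPKM before any centring. Asking for 30 pooled reads left 938 and 1175.

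At 4-fold the miR396 targets kept 3 lower calls, light signalling 1 higher and 0 lower, gibberellin and ethylene 0 higher, oxidative stress 0 higher and 1 lower, and seed reserves 3 higher. With at least 5 FPKM the targets kept 3 lower calls, gibberellin and ethylene 1 higher, jasmonate 0 higher and seed reserves 2 higher. The median log2 ratio of gibberellin and ethylene genes was 0.11 with a pseudocount of 0.1, −0.034 with at least 1 FPKM and 0.071 when centred, against 0.047 as reported. That of seed reserves was 1.397 with the pseudocount of 0.1 and 1.35 with at least 1 FPKM, against 0.88. Flavonoid genes listed lower numbered 2 at 4-fold, 1 with at least 5 FPKM and 2 when centred, against 4. The touch, jasmonate and heat-shock medians stayed within 1.5 times under the 3 settings tried.

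The means carry no spread between replicates, and whether a call rests on 1 library of a group was not tested. Reads were not recovered for genes with a deposited p-value of 0 or extremely close to 0, such as JAZ5 and MSRB8, or with a mean of 0.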

Other observations

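Of the 48 transcripts in the dark table that the sequencing centre named and the annotation does not hold, 33 were listed higher in 35S:miR396a and 15 lower. These are 34% and 15.5% of the 97 such transcripts with both dark values, beside 13.8% and 16.8% over all genes. Of the 48, 41 had both light values, and 21 of them were listed higher in the light (51.2%) and 7 lower (17.1%), beside 46.0% and 33.6% over all genes. Of the 2207 listed genes 27 were listed at 0 in Col-0 and 21 at 0 in 35S:miR396a. For 8 genes the deposited fold lay more than 1.5 times from the ratio of the FPKM columns, 1 of them with at least 5 FPKM in the larger group.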
